A study of Mus musculus with 14 samples.

Results

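The 8 genes described here encode enzymes and receptors that remodel lipoproteins in and around the liver, namely Lcat, Lipc, Lipg, Pltp, Angptl4, Scarb1, Lrp1 and Sort1. They were taken by gene symbol from the deposited gene table, where all 8 were found among 17552 genes. All 8 had at least 100 counts in both groups together, as did 13291 genes of the table, and these 13291 served as the background. The liver RNA came from male C57BL/6 mice deficient in Apoe, with an age of 8 weeks in the labels. The control group received a Western diet, and the erythrodiol group received the same diet with added erythrodiol, a triterpene alcohol of the olive. The dose of 10 mg/kg is given by the methods of the study per weight of mouse, not per weight of diet. The labels give 8 weeks of diet and the methods of the study a longer time. Each group comprised 7 libraries, and each library was a pool of polyA RNA from a few mice. All animals of both groups carried the Apoe deficiency, and no group with an intact gene was compared.

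Lipoproteins carry cholesterol and triglycerides in the blood. After secretion they are rebuilt there by lipases, by lecithin-cholesterol acyltransferase and by lipid transfer proteins, and are then removed by receptors, most of them on hepatocytes. Apolipoprotein E is a ligand for the removal of remnant particles, and in its absence remnants accumulate in the plasma. The 8 genes cover these steps. Lcat, Lipc, Lipg and Pltp encode proteins that act on circulating particles, chiefly high-density lipoprotein (HDL). Angptl4 encodes an inhibitor of lipoprotein lipase. Scarb1, Lrp1 and Sort1 encode receptors for HDL lipids, for remnants, and for intracellular sorting.

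The gene table holds 1 expected count per gene and group, obtained by adding up its 7 libraries. The sums were 122889032 in the control and 124686047 with erythrodiol. No value of a single library was given for a gene, so the difference between groups has no replicate check, and no p-value was computed. Ratios below are erythrodiol over control after scaling by these totals, and intervals are exact 95% counting intervals that cover counting error only. Levels are counts per kilobase of gene length per 1000000 counts of the group. In a tissue sum, fewer cells of a type and less RNA per cell cannot be told apart. Clean reads per library ranged from 34856340 to 55244294 in the control and from 47669656 to 48058606 with erythrodiol. In control replicates 1, 3 and 4, 41.6% to 56.2% of clean reads mapped to a unique genome position, against 62.6% to 69.1% in the other 11 libraries. These 3 libraries supplied 39.4% of the read pairs mapped to genes in the control, and their part in the ratios was not tested. Reads of Apoe itself numbered 9403 in the control and 8293 with erythrodiol, a log2 ratio of -0.20, so transcripts were counted at the targeted locus in both groups. The paper reports by RT-PCR that livers of Apoe-deficient mice lacked Apoe expression. Counts per gene do not show whether the transcripts counted here were intact.

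Sequence from upstream of the transcription start was at hand for 4 of the 8 genes, and 4 such windows are shown for 3 genes that act on circulating particles. They are shown because Lcat and Lipc, which stood far apart in their ratios, can be set beside each other, and because Lipc has separate start sites. Each window is the 250 bases before a RefSeq start on GRCm38.p6, written 5′ to 3′ on the strand of the gene, with motif matches in capitals.

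Lcat, chr8:105943403-105943652, minus strand: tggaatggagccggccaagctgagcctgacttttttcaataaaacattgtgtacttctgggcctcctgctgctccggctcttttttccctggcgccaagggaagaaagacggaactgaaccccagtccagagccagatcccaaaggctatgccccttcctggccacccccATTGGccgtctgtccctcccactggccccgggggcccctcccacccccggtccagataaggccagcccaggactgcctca

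Lipc upstream start, chr9:70952222-70952471, minus strand: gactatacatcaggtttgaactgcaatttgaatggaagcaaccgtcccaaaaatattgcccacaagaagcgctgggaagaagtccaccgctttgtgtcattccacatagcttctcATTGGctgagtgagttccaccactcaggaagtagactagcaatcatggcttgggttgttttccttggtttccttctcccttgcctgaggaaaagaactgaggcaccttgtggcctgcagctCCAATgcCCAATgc

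Lipc downstream start, chr9:70934809-70935058, minus strand: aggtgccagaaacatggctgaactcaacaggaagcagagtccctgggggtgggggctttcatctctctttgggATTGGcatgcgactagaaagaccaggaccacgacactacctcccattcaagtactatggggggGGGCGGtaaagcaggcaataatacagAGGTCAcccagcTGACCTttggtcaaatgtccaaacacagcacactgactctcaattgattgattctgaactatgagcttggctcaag

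Pltp, chr2:164857709-164857958, minus strand: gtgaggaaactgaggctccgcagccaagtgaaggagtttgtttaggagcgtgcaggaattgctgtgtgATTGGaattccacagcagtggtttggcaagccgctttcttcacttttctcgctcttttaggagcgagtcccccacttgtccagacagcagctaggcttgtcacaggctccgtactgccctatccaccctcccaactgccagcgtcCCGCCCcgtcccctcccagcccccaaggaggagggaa

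The capitals mark matches on either strand to the CCAAT box, to the GC box GGGCGG and to the nuclear receptor motif AGGTCA. The TATA box TATAAA and the E-box CACGTG were searched too, with no match in these windows. The windows of Lcat and Pltp had a GC content of 60.8% and 57.6%, above the median of 52.4% over all 32851 promoters of the table. Those of Lipc had 48.4% at the upstream and 50.8% at the downstream start. CCAAT was found in each of the 4 printed windows, once in Lcat at 80 to 76 bases before the start and 3 times at the upstream start of Lipc. The window of Lrp1, which was searched too, had no CCAAT. This motif was held by 33.8% of all promoters. The downstream Lipc window held AGGTCA at 88 to 83 bases before the start and its reverse complement at 76 to 71 bases, a motif present in 14% of all promoters. GGGCGG, held by 32.7%, matched in Pltp and in the downstream Lipc window. TATAAA was present in 12.4% of promoters and CACGTG in 6.02%. The Lrp1 window, with a GC content of 67.2%, held GGGCGG at 99 to 94 bases before the start and is not printed.

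Lcat had the highest level per length of the 8 genes in both groups. It encodes lecithin-cholesterol acyltransferase, which esterifies cholesterol on HDL and is secreted by hepatocytes. The deposited sum was 44890 counts in control livers and 59985 in erythrodiol livers, and the level per length was 267 in the control and 351 with erythrodiol. Lcat was 1.32-fold higher with erythrodiol (counting interval 1.30 to 1.33), a log2 ratio of 0.40. The gene lies on chr8:105939551-105943402 of GRCm38, minus strand, and its length in the table is 1370 bases. Among the 13291 background genes, 71.2% had a ratio above 1 and 33.7% were more than 1.2-fold higher.

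**Figure D1:**
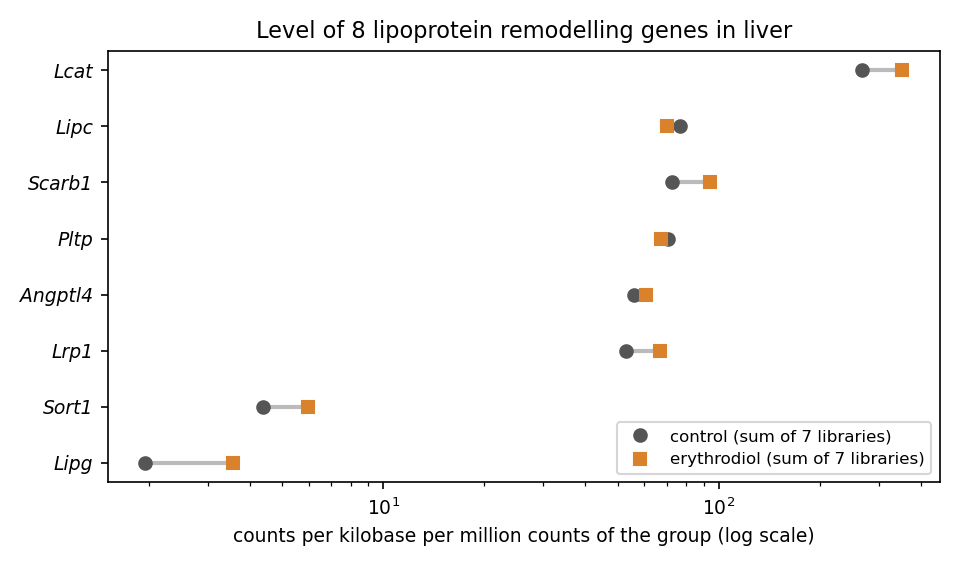
Level of each of the 8 genes in liver, as counts per kilobase per 1000000 counts of the group on a log scale, with circles for the control and squares for erythrodiol, each the sum of 7 libraries. Lcat stands highest at 267 and 351, 5 genes lie between 53.0 and 94.2, and Sort1 and Lipg lie between 1.96 and 5.96.

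Lipc encodes hepatic lipase, which is made by hepatocytes and hydrolyses triglycerides and phospholipids of remnants and HDL. It had 17985 counts in control livers and 16782 in erythrodiol livers, and levels per length of 76.4 and 70.2. Lipc was thus among the 2 genes of the set that were lower with erythrodiol, at 0.920-fold (0.900 to 0.939) and a log2 ratio of -0.12. Ratios below 1 were found for 28.8% of background genes. Lipc spans chr9:70798128-70952221, minus strand, with a length of 1916 bases in the table.

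Lipg encodes endothelial lipase, a phospholipase that acts on HDL at the vessel wall. The sums were 910 counts in control livers and 1688 in erythrodiol livers, and the levels per length were 1.96 and 3.57, the lowest of the 8 in each group. Its ratio was nonetheless the highest of the set, 1.83-fold (1.69 to 1.98), a log2 ratio of 0.87. It was the only gene of the 8 past 1.5-fold, which 2.55% of background genes passed in this direction, and none of the 8 was past 1.5-fold lower, against 3.14% of the background. Of all background genes, 99.5% had a lower log2 ratio than Lipg. The gene lies on chr18:74939322-74961263, minus strand, and its length in the table is 3787 bases.

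Pltp encodes phospholipid transfer protein, which moves phospholipids onto HDL and enlarges it. It had 15707.66 counts in control livers and 15185.11 in erythrodiol livers, and levels per length of 70.8 and 67.4. The ratio was 0.953-fold (0.932 to 0.974), a log2 ratio of -0.07. Pltp was the only gene of the 8 with counts that were not whole. Expected counts are not whole where a read fits more than 1 gene and is divided among them. On chr2:164839518-164857708, minus strand, it overlaps Ctsa on the opposite strand, the gene of a lysosomal protease, which had 20619.53 and 25890.76 counts and a log2 ratio of 0.31. The sources used here do not state that the libraries kept strand, so reads in the overlap cannot be assigned with certainty. Lcat, Lrp1 and Sort1 also overlap antisense transcripts in GENCODE, which were not analysed here.

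The ratio of 1 gene's count to another's within a group does not depend on how the group is scaled, and hepatic lipase was set against the other genes in this way. The count of Lipc was 19.8 times that of Lipg in the control and 9.94 times that with erythrodiol, a difference in log2 ratio of -0.99 (-1.11 to -0.87). Lipc against Pltp changed little, from 1.14 to 1.11 times, a difference of -0.05 (-0.10 to -0.01). Lipc and Angptl4 have the same length in the table, and their count ratio went from 1.37 to 1.16, a difference of -0.24 (-0.28 to -0.19). Lipc against Lcat went from 0.401 to 0.280, a difference of -0.52 (-0.55 to -0.48).

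Angptl4 encodes angiopoietin-like 4, a secreted inhibitor of lipoprotein lipase whose gene is a known target of PPAR nuclear receptors. It had 13168 counts in control livers and 14491 in erythrodiol livers, and levels per length of 55.9 and 60.7. Its ratio was 1.08-fold (1.06 to 1.11), a log2 ratio of 0.12, which is below the median log2 ratio of all background genes, 0.16, so that it was above 0 in 3 of 5 scalings and below 0 in 2. The gene lies on chr17:33774900-33781575, minus strand, with no other annotated gene over it.

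Scarb1 encodes scavenger receptor class B type I, the receptor through which hepatocytes take up cholesteryl esters of HDL. It had 22150 counts in control livers and 29257 in erythrodiol livers, and levels per length of 72.3 and 94.2. Scarb1 was 1.30-fold higher (1.28 to 1.32), a log2 ratio of 0.38. By level it ranked behind Lcat and Lipc in the control and behind Lcat alone with erythrodiol. The count of Scarb1 was 1.23 times that of Lipc in the control and 1.74 times with erythrodiol, a difference in log2 ratio of 0.50 (0.46 to 0.54). Against Lcat the count of Scarb1 did not move beyond counting error, at -0.02 (-0.05 to 0.01). The 2 genes differ in length, and with each taken relative to genes of like length the difference was -0.16. The gene lies on chr5:125277087-125341094, minus strand.

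Lrp1 encodes a large endocytic receptor that clears remnant particles and many other ligands, and apolipoprotein E is among its ligands. With 97141 counts in control livers and 124203 in erythrodiol livers it had the most reads of the 8 genes, but with a length of 14907 bases its level per length was 53.0 and 66.8. The ratio was 1.26-fold (1.25 to 1.27), a log2 ratio of 0.33, which stayed above 0 in 4 of 5 scalings and was below 0 relative to like length. The gene lies on chr10:127538157-127621148, minus strand.

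Sort1 encodes sortilin, a sorting receptor of the Golgi that binds apolipoprotein B. It had 3691 counts in control livers and 5105 in erythrodiol livers, and levels per length of 4.38 and 5.96. Sort1 was 1.36-fold higher (1.31 to 1.42), a log2 ratio of 0.45, the second highest of the set. The gene lies on chr3:108283974-108361519, plus strand.

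In the order of levels, Lcat was followed in the control by Lipc, Scarb1, Pltp, Angptl4, Lrp1, Sort1 and Lipg. The counting intervals of neighbours overlapped only for Scarb1 (71.4 to 73.3) and Pltp (69.7 to 71.9). With erythrodiol, Scarb1 preceded Lipc and Lrp1 preceded Angptl4, and the intervals of Pltp (66.4 to 68.5) and Lrp1 (66.5 to 67.2) overlapped. The spread between libraries cannot be set beside these differences. The highest level was 136 times the lowest in the control and 98.2 times with erythrodiol. The 8 genes together held 0.175% of all control counts and 0.214% of those with erythrodiol.

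Over the 8 genes, 6 ratios lay above 1 and 2 below, with a median log2 ratio of 0.36. Past 1.2-fold higher were 5 genes, against 33.7% of the background, and none was past 1.2-fold lower, against 11.4%. None of the 8 was past 2-fold, which 0.218% of background genes passed upward and 0.549% downward. These counts have to be read against the background, in which 71.2% of genes lay above 1. Relative to the median of all background genes, 5 of the 8 were higher and 3 lower, against 50% of the background that was higher. The ratio also increased with gene length. In 10 classes of nearly equal size, the median log2 ratio went from -0.18 in genes of 333 to 1211 bases to 0.33 in genes of 6116 to 26655 bases. Each of the 8 genes was therefore set against the 500 background genes nearest to it in length.

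**Figure D2:**
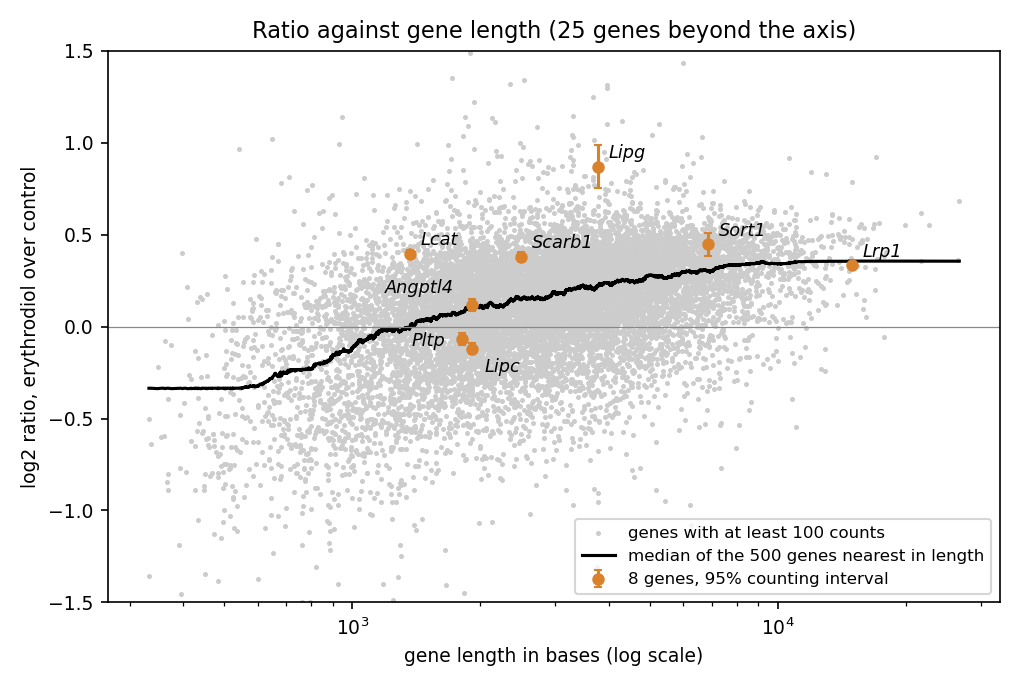
Log2 ratio of erythrodiol over control against gene length in bases on a log scale, for the genes with at least 100 counts (grey), the median of the 500 genes nearest in length (black line) and the 8 genes with 95% counting intervals (orange). The line climbs with length, Lrp1 at 14907 bases lies on it, Lipg and Lcat lie above it, and 25 genes are beyond the axis.

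Lipg remained the most distant of the 8 from genes of like length, at a log2 ratio of 0.65 above their median, or 1.57-fold, with 99.4% of the 500 genes below it. This was again the only gene past 1.5-fold, a limit that 1.02% of background genes passed upward relative to like length and 3.53% downward. Lcat was 0.39 above genes of like length, with 94.2% of them below, since genes of about its length had a median near 0. Scarb1 was 0.23 above, with 88.2% below, and Sort1 was 0.15 above, with 80.6% below. These 4 genes lay above the interquartile range of their like-length genes.

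Lrp1 and Angptl4 did not stand apart on this scale. Lrp1 was -0.02 from its like-length genes, with 44.4% of them below, although its log2 ratio of 0.33 had been near that of Scarb1. The 500 genes nearest to Lrp1 spanned 8049 to 26655 bases. Angptl4 was 0.01 above, with 52% below. Pltp was -0.15 from its like-length genes, with 28.6% below, inside their interquartile range. Lipc was -0.23 from them, with 22.2% below, and was the only gene of the 8 under that range. The median over the 8 genes was 0.08 on this scale, with 5 genes above 0 and 3 below, against 49.9% of the background above and 50.1% below.

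**Figure D3:**
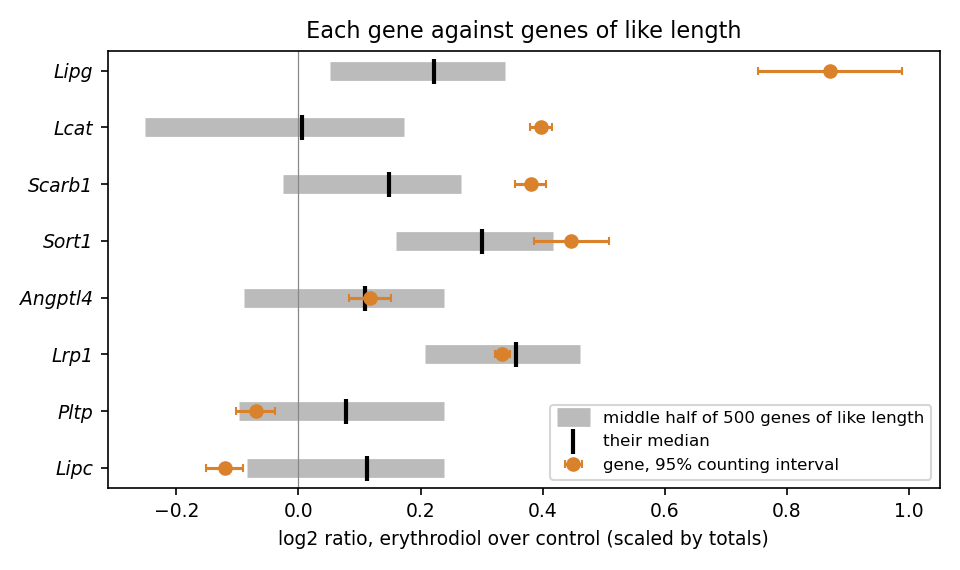
Log2 ratio of each of the 8 genes (orange, 95% counting interval) beside the interquartile range of the 500 genes nearest to it in length (grey bar) and their median (black tick), scaled by totals. Lipg, Lcat, Scarb1 and Sort1 lie to the right of their bars, Lipc lies to the left, and Pltp, Angptl4 and Lrp1 lie inside.

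Matching on length and count together gave nearly the same places. Lipg was then 0.65 above the matched genes, Lcat 0.36, Scarb1 0.20 and Sort1 0.09, while Lipc was at -0.25 and Pltp at -0.18. Angptl4 was at -0.01 and Lrp1 at -0.05 in that comparison.

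Other genes of the same pathway were read from 3 further lists, which together held 52 genes, 45 of them with at least 100 counts. Of these 45 genes, 32 had a ratio above 1 and 13 below, against 71.2% of the background above 1. Relative to like length 23 were higher and 22 lower, against 49.9% of the background higher. The median log2 ratio of the 45 genes was 0.14, close to the 0.16 of all background genes.

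Among vascular lipases and their regulators, 9 of 14 genes were higher and 5 lower on both scales, and none was past 1.5-fold. In the background 71.2% of genes were higher by totals and 49.9% relative to like length. Past 1.5-fold were 2.55% of background genes upward and 3.14% downward. The median log2 ratio of the list was 0.09, and 0.11 relative to like length. Lpl, the gene of lipoprotein lipase, had 15614.79 counts in control livers and 17337.94 in erythrodiol livers, a log2 ratio of 0.13 by totals and of -0.10 relative to like length. Apoc3, an inhibitor of triglyceride clearance with the highest level of this list, had 106653 and 109650 counts, a log2 ratio of 0.02 by totals and of 0.36 relative to like length. Sel1l, needed for the folding of lipoprotein lipase in the endoplasmic reticulum, was highest by ratio with 15708 and 22692 counts and a log2 ratio of 0.51. Angptl8 was the lowest, with 4165 and 3439 counts and a log2 ratio of -0.30. Angptl8 also had the lowest value among 5 other angiopoietin-like genes, of which 2 were higher and 3 lower. Among these, Angptl2 had the highest log2 ratio, 0.29.

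Of 17 genes listed as receptors and receptor partners, 14 were higher and 3 lower, against 71.2% of the background higher. Relative to like length only 7 were higher and 10 lower, against 49.9% of the background higher. Past 1.5-fold were 2 genes upward and 1, Cd36, downward, against 2.55% and 3.14% of the background. Cd36, a fatty acid and scavenger receptor of the same family as Scarb1, had 21278 and 13007 counts, 0.602-fold, and was -0.89 from like length, on the other side of 0 from Scarb1. Hdlbp had the highest level of this list and a log2 ratio of 0.45. Of the relatives of Sort1, only Sorl1 had at least 100 counts, with 818 and 856 and a log2 ratio of 0.04 by totals and of -0.30 relative to like length.

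In the list of HDL formation and cholesteryl ester handling, 9 of 14 genes were higher and 5 lower, relative to like length 7 each, and none was past 1.5-fold. In the background 71.2% of genes were higher, and 49.9% were higher relative to like length. Past 1.5-fold were 2.55% of background genes upward and 3.14% downward. Apoa2, an apolipoprotein of HDL with the highest level of this list, had 622779 and 601177 counts and a log2 ratio of -0.07 by totals and of 0.27 relative to like length. Npc1, which exports cholesterol from lysosomes, was highest at 0.48, and Pla2g15, a lysosomal phospholipase related to Lcat, was lowest at -0.26. Abca1, which loads cholesterol onto apolipoprotein A-I, had 28582 and 33854 counts and a log2 ratio of 0.22 by totals and of -0.12 relative to like length. The authors' annotation of HDL particle remodelling was shared by 5 of the 8 genes, namely Lcat, Lipc, Lipg, Pltp and Scarb1. The 5 other genes with that term had a median log2 ratio of 0.02 by totals and of 0.27 relative to like length, where 3 were above 0 and 2 below.

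Several of the 8 genes are known targets of nuclear receptors or SREBP factors, so 3 lists of such targets were set beside them. In the background 71.2% of genes lay above 1, 49.9% were higher relative to like length and 2.55% were past 1.5-fold higher. All 10 SREBP2 targets had ratios above 1, also relative to like length, with a median log2 ratio of 0.65 and 7 past 1.5-fold. Among these were Sqle, Idi1, Cyp51 and Lss, whose enzymes act in cholesterol synthesis. Sqle was highest, with 1527 and 2902 counts and a log2 ratio of 0.91, close to the 0.87 of Lipg, and Insig1 was lowest at 0.29. Of 9 LXR targets, 6 were higher and 3 lower, with a median of 0.14, and relative to like length 2 were higher and 7 lower. Among the LXR targets Lpcat3 had the highest level and a log2 ratio of 0.22, Abcg8 was highest at 0.31 and Smpdl3a lowest at -0.33. Of 12 PPARalpha targets, 10 were higher and 2 lower, with a median of 0.15, beside 0.12 for Angptl4 and 0.16 for all background genes. Relative to like length 6 were higher and 6 lower. Plin2, which coats lipid droplets, was lowest at -0.32. Fgf21, a hormone of the fasted liver, was the only one past 1.5-fold, with 1207 and 2695 counts, 2.20-fold.

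**Figure D4:**
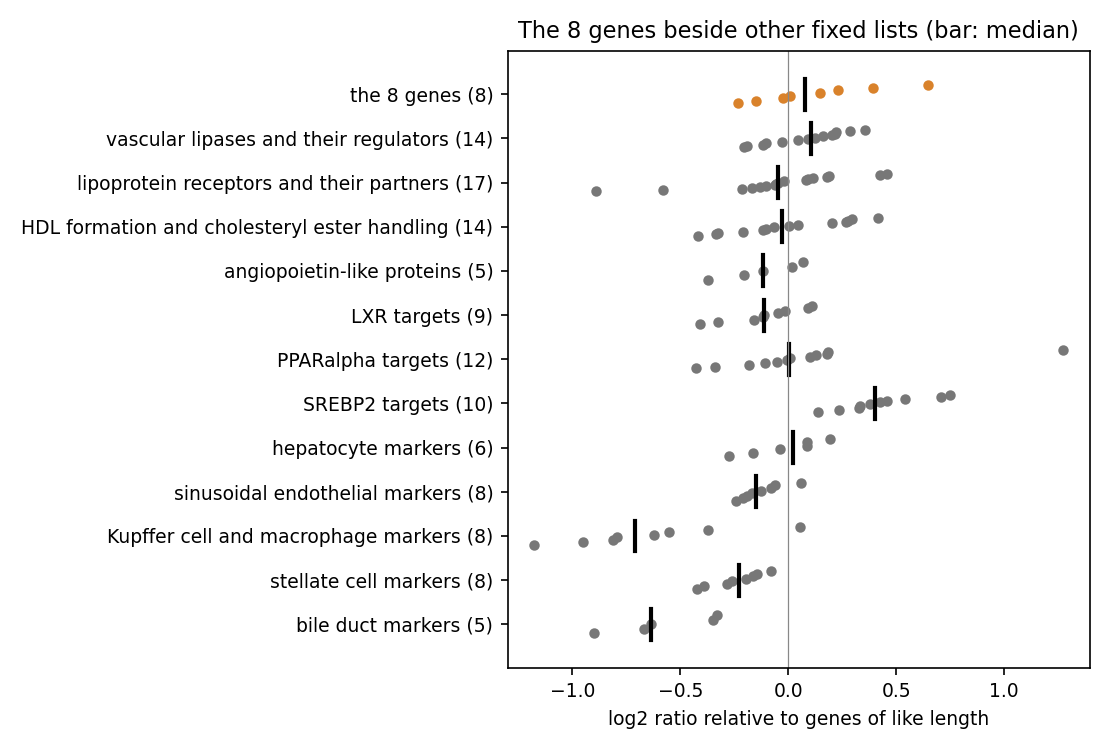
Log2 ratio relative to genes of like length for the 8 genes and each further list, with 1 point per gene of at least 100 counts and a bar at the list's median, and the number of genes in parentheses. The 8 genes spread from -0.23 to 0.65 around a median of 0.08, the SREBP2 targets lie above 0 throughout, and the Kupffer cell and bile duct markers have medians of -0.71 and -0.63.

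Markers of liver cell types were read as summed levels per length. The 6 hepatocyte markers summed to 46459 in the control and 45915 with erythrodiol, with 4 genes higher and 2 lower, so that the markers of the labelled tissue were present. Alb, the gene of albumin, led them and had a log2 ratio of -0.06, Cps1 was highest at 0.36 and Asgr1 lowest at -0.30. Endothelial cells are a known source of endothelial lipase. The 8 sinusoidal endothelial markers summed to 92.4 and 88.3. Of these markers 5 were higher and 3 lower by totals and 1 was higher and 7 lower relative to like length, with Kdr highest at 0.33 and Clec4g, the most abundant, lowest at -0.26. The endothelial sum lay lower with erythrodiol while Lipg lay higher, and its part in the Lipg value was not tested. The 8 stellate cell markers summed to 188 and 172, with 4 higher and 4 lower by totals, from -0.17 for Dcn, the most abundant, to 0.19 for Reln. Relative to like length all 8 were lower, with a median of -0.23. In the background 71.2% of genes lay above 1 by totals and 50.1% were lower relative to like length.

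The 8 Kupffer cell and macrophage markers summed to 484 in the control and 320 with erythrodiol, and 7 of the 8 were lower. Clec4f, Vsig4, Adgre1, Cd5l and Marco were past 1.5-fold lower, from a log2 ratio of -0.59 for Vsig4 to -1.07 for Marco, while Cd68 was at 0.04. Cd5l had the highest level, with 65371 and 40760 counts. In the background 28.8% of genes lay below 1 and 3.14% were past 1.5-fold lower. The 5 bile duct markers, all lower, summed to 77.1 and 51.3, with Spp1 and Krt19 past 1.5-fold lower at -0.60 and -0.89 and Sox9 at -0.09. Of 4 adipocyte markers only Cfd had at least 100 counts, with 416 and 160 and a log2 ratio of -1.40, and the 4 summed to 3.88 and 1.58. Cfd alone made up 3.66 and 1.39 of these sums. The others had few counts, 28 and 25 for Adipoq, 5 and 7 for Plin1, and 2 and 1 for Lep. Of 5 pancreatic acinar markers only Cela2a had at least 100 counts, with 104 and 96, and the 5 summed to 1.10 and 1.41. Below that limit Ctrb1 had 8 and 42 counts, Cpa1 2 and 15, Cel 8 and 14, and Pnlip 11 and 10. No marker of any of these lists was at 0 in either group. Macrophages also express Lrp1, Pltp and Scarb1, and the part of the lower Kupffer cell sum in their values was not tested.

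Besides the annotated transcripts, the authors added assembled coding transcripts, deposited as 1 annotation for the whole series. Lipc received 3 of these and Scarb1 received 1, while the other 6 genes received none. Of all 17552 genes, 28.5% had at least 1 added transcript and 1314 had at least 3. Counts were deposited per gene, so no value of any transcript can be given for either group.

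The first added Lipc transcript has 11 exons over 1946 bases and begins at chr9:70952221, the annotated upstream start that the first Lipc window above precedes. Of its 10 introns, 9 are in GENCODE M21. It holds an exon of 48 bases (chr9:70820851-70820898), and GENCODE has 47 of these bases as the last coding exon of a partial transcript. The junction from this exon to the next, over the intron chr9:70820543-70820850, is not annotated. The sequence below shows these 47 bases in capitals after the last 30 bases of the preceding exon in lower case, since this exon is what sets the first 2 added transcripts apart from the third.

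Lipc exon, chr9:70820852-70820898, minus strand: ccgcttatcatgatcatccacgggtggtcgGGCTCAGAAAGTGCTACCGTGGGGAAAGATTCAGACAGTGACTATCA

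The second added Lipc transcript, of 8 exons, holds the 48-base exon as well but begins at chr9:70835178, within an annotated intron and 117043 bases downstream of the upstream start. The third has 8 exons, begins at the upstream start and lacks the 48-base exon. Both end in the same 289-base exon, chr9:70812120-70812408, which lies in an annotated intron, so that they stop short of the last 3 exons of the first. The second transcript has 3 junctions that are not annotated and the third has 1.

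**Figure D5:**
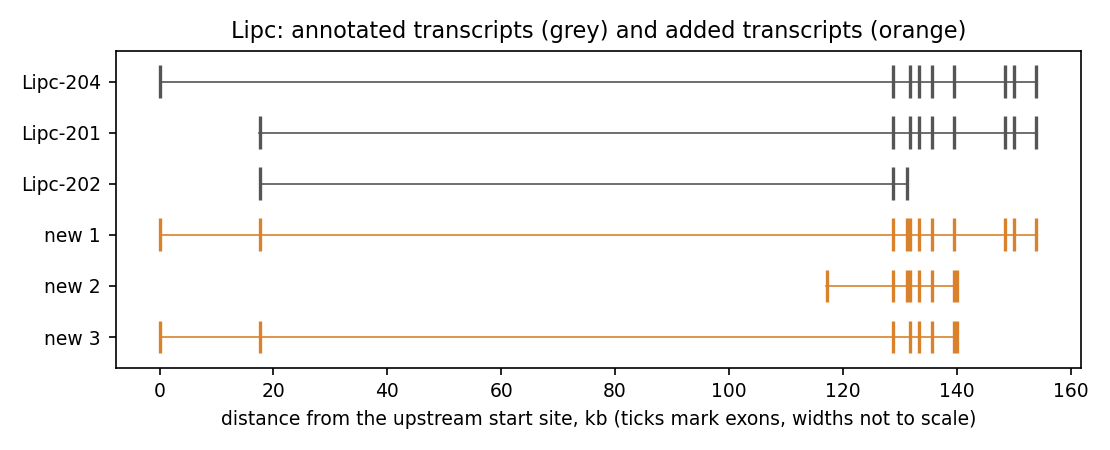
Exons of Lipc transcripts by distance in kilobases from the upstream start site, with annotated transcripts in grey and the 3 added transcripts in orange, where ticks mark exons and their widths are not to scale. Added transcripts 1 and 3 begin at the upstream start, transcript 2 begins inside the gene, and transcripts 2 and 3 stop before the last exons.

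The added Scarb1 transcript has 12 exons over 2277 bases and begins at chr5:125326382, which is 14712 bases downstream of the RefSeq start. Its first exon, chr5:125326160-125326382, overlaps an annotated exon, and the other 11 exons are annotated at both ends. Its first junction, over chr5:125304353-125326159, is the only one of 11 that is not in GENCODE. Its exons after the first are thus those of annotated Scarb1.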

How the data were processed

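Liver polyA RNA of 7 control and 7 erythrodiol libraries was sequenced in paired-end mode (BGISEQ-500). According to the methods and the submitters' notes, the authors mapped reads with HISAT, assembled transcripts with StringTie and Cufflinks, and counted with Bowtie2 and RSEM, for which versions are not given in the sources used here. The deposited gene values are expected counts summed per group and not normalized. The authors also deposited, per library, counts of clean reads and detected genes and percent of reads mapped. Columns of the authors' own comparison (log2 ratio, p and q) and tables of splicing events were not used.

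Groups were taken from the labels. Counts were scaled by column totals, and exact conditional binomial intervals of ratios used rounded counts at a confidence level of 95%. Intervals of levels were exact Poisson intervals, and those of differences between 2 genes used a normal approximation. Genes of like length were the 500 nearest in log length among genes with at least 100 counts. The design had allowed for counts per library. With 1 value per group no quasi-likelihood test could be fitted, and edgeR 4.0.16 in R 4.3.3 gave only the trimmed-mean factors. Members and lists were chosen with earlier results of these data known. Named from each list were the gene of highest level, the highest and lowest ratio, and genes past 1.5-fold. Other listed genes (Lpl, Abca1) were named after their values were seen. Some genes that this rule names are not reported here. No genes of like pattern were sought. Transcripts were compared with GENCODE M21 and RefSeq on GRCm38. The computation of ratios and of like-length values was checked on simulated counts with known changes. Tables were computed with pandas 2.3.3 and scipy 1.17.1 in Python 3.11.15, and figures drawn with matplotlib 3.10.9.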

Additional observations from a re-analysis of the deposited data

Results flagged for a closer look

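In control replicate 3, 64.3% of clean reads mapped to genes and 76.7% to the genome, both the lowest of the 7 control libraries and farther from the nearest library than Dixon's 95% limit of 0.568 of the group's range allows. The gap was 0.588 of the range for genes and 0.852 for the genome. For a single measure, chance gives a gap past the limit in about 1 in 20 groups. Several measures were screened in both groups. The library is part of the control sums of all 8 genes and could not be taken out of them, and its part in the ratios was not tested.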

How the results depend on the processing

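The ratios depended on the scaling, since most genes lay above 1 by totals. The median log2 ratio of the 8 genes was 0.36 by totals, 0.26 with totals that left out the 50 genes of highest count, 0.20 both with the median ratio of all genes and with trimmed means, and 0.0765 relative to like length. The trimmed-mean factors were 0.947 and 1.056. Lipg, Lcat, Scarb1 and Sort1 were above 0 and Lipc and Pltp below 0 in all 5 of these scalings, while Lrp1 was above 0 in 4 and Angptl4 in 3. The 1 gene past 1.5-fold higher compared with 0 genes at a 2-fold and 5 at a 1.2-fold limit. The median relative to like length was 0.0366 with genes matched on count as well and 0.06 to 0.08 with 200 or 1000 neighbours or other count minimums. A count of 1 added to each group did not move the median. Under these alternatives the median kept its direction. No paired analysis was possible because the gene columns are group sums without replicate numbers, and for the same reason no library could be left out in turn.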
